A study of Mus musculus with 12 samples.

Results

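Histone genes were followed in mouse bone marrow cells labelled long-term haematopoietic stem cells (LT-HSCs), by RNA-seq of poly-A RNA in 12 libraries. Genes were taken by name from the deposited table: names that begin with Hist1h to Hist4h, H1f, H2f, H2af or H3f. Of 28999 genes in the table, 25 names matched, and 3 of them that contain -ps, a mark of pseudogenes, were left out. The 22 remaining genes were 9 Hist-named genes of the H2A, H2B and H4 classes and 13 genes named H1f or H3f. The table mixes naming systems, so the names do not follow the gene classes. Of the 13, 6 are linker histone genes of the Hist1 cluster on chromosome 13 under newer symbols (H1f1 to H1f6, once Hist1h1a, c, d, e, b and t), and 7 lie elsewhere. No name began with H2af, and 60 further histone genes stand in the table under newer symbols such as H2bc21, H4c9 and Macroh2a1. Those 60 served only for comparison.

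Core histones (H2A, H2B, H3 and H4) wrap DNA into nucleosomes, and the linker histone H1 binds where the DNA enters and leaves. Replication-dependent histone genes sit in clusters and are expressed mainly in S phase. Their mRNAs normally end in a stem-loop, bound by SLBP, in place of a poly-A tail. Variant histones such as H3.3, encoded by H3f3a and H3f3b, and H1.0, encoded by H1f0, are made outside S phase from ordinary polyadenylated mRNAs. Poly-T beads are therefore meant to recover only the polyadenylated share of the RNA from a stem-loop gene. Whether the counts below come only from that share was not tested.

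Each of 4 groups had 3 libraries: untreated wild-type mice, untreated mice labelled Trim47-/-, wild-type mice treated with 5-fluorouracil (5-FU, a drug that blocks thymidylate synthesis and kills dividing cells), and treated mice labelled Trim47-/-. The labels give 10 days for 5-FU, and they give neither the age, strain or number of mice, the sorting gate, nor the part of Trim47 that was deleted. Nothing in the labels says that the 3 libraries of a group came from separate mice. Each p-value therefore sets a difference only against the spread between these libraries, and that spread may be technical. In bulk RNA, fewer cells of a type and less RNA per cell cannot be told apart.

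Trim47, the targeted gene, does not check all labels. Its level in CPM (counts scaled to a common library size after TMM normalization) was 24.62, 23.77 and 24.74 in untreated wild type and 23.68, 18.91 and 16.57 in untreated libraries labelled Trim47-/-. That difference did not pass edgeR's quasi-likelihood test (log2 change -0.31, SE 0.115, adjusted p = 0.0632). After 5-FU the gene had 38.15, 33.27 and 34.73 CPM in wild type and 10.11, 12.24 and 11.6 CPM in libraries labelled Trim47-/-. The genotype is therefore given below as the label gives it, and directions in untreated mice rest on labels that this gene does not check. Total counts were 13919649 to 20703198, highest in untreated libraries labelled Trim47-/- (20661120 to 20703198). Averaged over all genes compared, the chi-square between pairs of a group was 4.93 to 7.34 per gene, above counting noise. A few genes can raise such a mean. Among the histone genes taken by name, 70 of 79 gene and group cases stayed within counting noise (chi-square test, p limit 0.01). In most of these cases the test thus found no spread between the libraries of a group beyond repeat counts of a single sample. At low counts it can miss such spread, and the cases beyond the limit include abundant genes such as H3f3a and H3f3b. All 10 LT-HSC markers were detected in every group, and so were the markers of other blood cells described with the results they move with.

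Sequences of the transcripts show which genes carry the histone 3′ end. In GENCODE M21 transcripts of GRCm38, a full match to the stem-loop consensus followed the reading frame in 9 of the 22 genes. It is shown in capitals below, with up to 5 bases on each side, for the genes whose RNA was high or changed.
Hist1h2ao: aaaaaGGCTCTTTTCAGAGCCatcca
Hist1h2ap: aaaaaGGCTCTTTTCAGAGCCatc
Hist1h2bp: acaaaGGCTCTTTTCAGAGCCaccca
Hist1h4m: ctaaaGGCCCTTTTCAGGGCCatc
H1f2: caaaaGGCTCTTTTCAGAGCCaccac
H1f3: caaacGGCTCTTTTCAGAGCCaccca
The model of Hist1h2ao ends 31 bases after its stem-loop and that of Hist1h2ap ends 3 bases after it, with no polyadenylation hexamer (AATAAA, with ATTAAA as its common variant) in between. The H1f2 model runs 840 bases past the stem-loop with 2 hexamers, and the H1f3 model runs 4884 bases past it with 12. Hist1h2bq and Hist1h2br have long spliced models of 1254 and 1256 bases, identical over 99.84%, with no stem-loop and 3 hexamers each after the frame. Their longest models, of 2015 and 2197 bases, matched over 90.16% and also held no stem-loop. Each gene also has a model of 381 bases that ends with the frame, so a stem-loop could not be seen there. The models of H1f1, H1f5 and Hist1h2an hold no full match, and a missing match says only that these letters are not in those models.

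Several of the genes are near-copies, so their counts are uncertain. The reading frames of Hist1h2ao and Hist1h2ap were identical over 393 bases, and so were those of Hist1h2bq and Hist1h2br (405 bases) and of Hist1h4m and Hist1h4n (312 bases). H3f3c, annotated as a processed pseudogene, matched H3f3a over 99.03% of 411 bases, while H3f3a and H3f3b shared 77.22%. How reads that fit both copies were counted is not given in the sources used here. The values of such pairs are therefore given singly and summed.

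Promoter sequence was compared because genes of the cluster moved in different directions, and H1f0, which lies outside it, is shown beside them. Below are the 250 bases before the RefSeq start (GRCm38.p6) of Hist1h2bq (chr13:21810200-21810449, minus strand), H1f1 (chr13:23763418-23763667, plus), H1f5 (chr13:21780626-21780875, minus) and H1f0 (chr15:79027962-79028211, plus). Capitals mark the TATA box (TATAAA), the CCAAT box (CCAAT), the octamer (ATTTGCAT) and the H1 box (AAACACA), searched on both strands.
Hist1h2bq: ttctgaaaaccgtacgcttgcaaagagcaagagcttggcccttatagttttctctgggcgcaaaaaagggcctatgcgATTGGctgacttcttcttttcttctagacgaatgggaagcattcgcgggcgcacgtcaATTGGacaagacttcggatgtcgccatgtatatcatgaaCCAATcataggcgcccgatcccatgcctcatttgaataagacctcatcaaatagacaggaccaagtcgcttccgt
H1f1: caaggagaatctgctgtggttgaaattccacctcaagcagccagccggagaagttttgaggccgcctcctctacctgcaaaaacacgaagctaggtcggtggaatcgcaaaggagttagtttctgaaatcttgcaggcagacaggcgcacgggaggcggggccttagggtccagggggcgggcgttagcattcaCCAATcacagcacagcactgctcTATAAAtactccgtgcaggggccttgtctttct
H1f5: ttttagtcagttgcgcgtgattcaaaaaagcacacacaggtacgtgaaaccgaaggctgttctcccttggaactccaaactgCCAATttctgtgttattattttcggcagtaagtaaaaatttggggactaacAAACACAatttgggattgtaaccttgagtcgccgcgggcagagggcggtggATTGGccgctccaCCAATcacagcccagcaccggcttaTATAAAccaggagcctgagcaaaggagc
H1f0: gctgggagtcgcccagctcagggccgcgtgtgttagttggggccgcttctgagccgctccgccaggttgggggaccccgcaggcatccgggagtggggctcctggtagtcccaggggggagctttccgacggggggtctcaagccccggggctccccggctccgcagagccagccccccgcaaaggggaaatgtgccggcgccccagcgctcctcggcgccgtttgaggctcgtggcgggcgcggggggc
The window of Hist1h2br is the same as that of Hist1h2bq, letter for letter. The Hist1h2bq window lies between Hist1h2bq and its divergent neighbour Hist1h2ao, so it is also upstream of the annotated Hist1h2ao gene. Over 300 bases, with 50 after the start, H1f1 and H1f5 matched over 55.95%. No such value was taken for unrelated windows, so this one does not show similarity. Over the 300-base RefSeq windows, which add 50 bases after the start, CCAAT was found in 15 of the 20 histone genes with an entry and in 37.408% of 32851 promoters. TATAAA was found in 10 of 20 and in 13.616% of promoters, and AAACACA in 6 of 20 (H1f2 to H1f6 and H3f3a, but not H1f1) and in 7.184%. The octamer was found in 1 of 20, H3f3b, and in 1.735% of promoters. None of the 4 motifs was found in the H1f0 window.

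Levels were compared between genes per length, as deposited FPKM averaged over the 12 libraries. Hist1h2ao, an H2A gene, stood first at 491.3 FPKM, above H3f3b at 311.7, H3f3c at 194.0 and the linker gene H1f2 at 188.7. Hist1h2ap had 90.11 FPKM, H1f0 62.42 and H3f3a 61.31. H1f10 and H1f1 followed at 22.78 and 21.02, and the other 13 genes lay at or below 16.98 FPKM, the level of Hist1h4m. The testis linker gene H1f6 was last at 0.061 FPKM. Neighbours in this order with overlapping ranges, such as H3f3c and H1f2, Hist1h2ap and H1f0, or H1f0 and H3f3a, cannot be ranked. The short models of the stem-loop genes make FPKM high for few counts, and Hist1h2ao had 235.9 CPM against 1785 CPM for H3f3b. The deposited FPKM also implies lengths of 5708 bases for H3f3b and 4971 for H3f3a. Their longest transcript models have 2514 and 2841 bases, so their FPKM is low for their counts. H3f3c, above H3f3a in FPKM, had 79.84 CPM against 305.2. The order of these genes therefore depends on the lengths used and does not rank their transcripts.

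**Figure D1:**
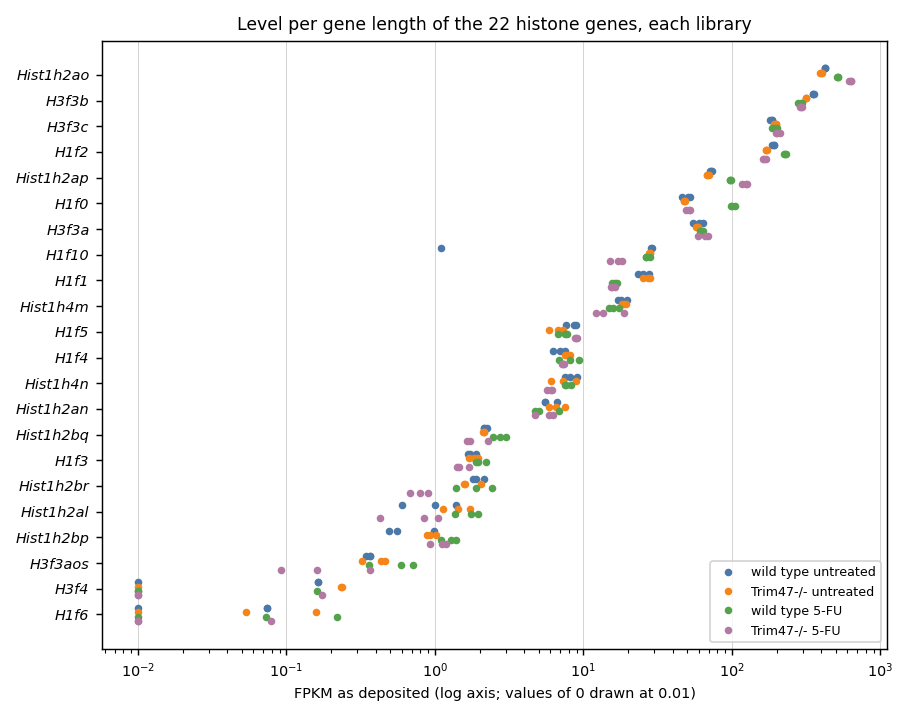
Deposited FPKM (horizontal log axis) of the 22 histone genes in each of 12 libraries, coloured by group, with values of 0 drawn at 0.01. Hist1h2ao leads at a mean of 491.3 and H1f6 is last at 0.061, and 1 untreated wild-type library stands apart for H1f10.

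The 22 genes together took 0.312%, 0.287%, 0.301% and 0.288% of all counts in untreated wild type, untreated libraries labelled Trim47-/-, wild type after 5-FU and 5-FU libraries labelled Trim47-/-. In that order of groups, used throughout, the 9 Hist-named genes summed to 272.5 ± 1.39, 255.9 ± 1.15, 309.5 ± 1.76 and 385.6 ± 5.33 CPM (mean ± SD, n = 3 each). The 6 cluster H1 genes summed to 358.3 ± 3.21, 323.2 ± 2.37, 386.9 ± 4.78 and 304.9 ± 5.86 CPM. In treated libraries labelled Trim47-/- the first sum was therefore at its highest and the second at its lowest. Leaving out genes that overlap another removes all 4 Hist-named H2A genes, among them Hist1h2ao and Hist1h2ap. The Hist-named sum, then of H2B and H4 genes only, was 26.18, 25.09, 25.48 and 18.73 CPM, lowest in treated libraries labelled Trim47-/-. The 7 genes outside the cluster, mostly H3f3b, summed to 2578 ± 32.9, 2334 ± 13.3, 2179 ± 55.8 and 2214 ± 59.1 CPM. These sums describe chosen genes and carry no test. All tests below are edgeR quasi-likelihood tests over 16319 genes, of which 19 were histone genes by the name rule. Hist1h2al, H1f6 and H3f4 did not pass the filter on low counts, with means of 0.412, 0.055 and 0.0392 CPM. Comparisons that start from the same libraries share their spread, and each is given by its own values.

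Hist1h2ao and Hist1h2ap made up most of the Hist-named RNA and were highest after 5-FU in libraries labelled Trim47-/-. Hist1h2ao (chr13:21810465-21810944) had 209.1, 207.3 and 207.1 CPM in untreated wild type and 195.7, 192.1 and 194.4 CPM in untreated libraries labelled Trim47-/-. After 5-FU it had 236.2, 237.6 and 235.3 CPM in wild type and 306.3, 309.7 and 299.4 CPM in libraries labelled Trim47-/-. No group overlapped another, and the treated libraries labelled Trim47-/- stood highest. It rose after 5-FU by 0.19 on the log2 scale in wild type (SE 0.0191, adjusted p = 9.26e-06) and by 0.65 in libraries labelled Trim47-/- (SE 0.019, adjusted p = 1.64e-10). The responses differed by 0.47 (SE 0.0269, adjusted p = 7.36e-08). Between genotypes it was lower in untreated libraries labelled Trim47-/- (-0.10, SE 0.0191, adjusted p = 0.00217) and higher after 5-FU (0.37, SE 0.019, adjusted p = 3.16e-08).

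Hist1h2ap (chr13:21833026-21833507), with the same reading frame, followed the same order at a lower level. It had 35.13, 36.59 and 35.52 CPM in untreated wild type, 33.29, 33.39 and 34.11 in untreated libraries labelled Trim47-/-, 45.35, 44.85 and 44.79 in wild type after 5-FU, and 56.55, 60.19 and 61.13 in treated libraries labelled Trim47-/-. Again no groups overlapped. It rose by 0.33 in wild type (adjusted p = 2.8e-05) and by 0.82 in libraries labelled Trim47-/- (adjusted p = 8.93e-09), a difference of 0.49 (SE 0.0549, adjusted p = 1.7e-05). The untreated genotype difference of -0.09 did not pass alone (adjusted p = 0.145). With the counts of Hist1h2ao and Hist1h2ap summed, the untreated difference was -0.10, the one after 5-FU 0.37, and the difference in response 0.47. Both genes overlap short predicted genes, Gm19658 and Gm44466, whose reads may not be told apart from theirs. Hist1h2an, the third tested H2A gene, lay at 1.768 to 2.991 CPM in all libraries and passed no test. Hist1h2al, a processed pseudogene by annotation, had 0.145 to 0.6325 CPM.

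The H2B neighbours of these genes were lower, not higher, in treated libraries labelled Trim47-/- compared with treated wild type. Hist1h2ao and Hist1h2bq are transcribed away from each other across 267 bases, and Hist1h2ap and Hist1h2br across 235 bases, an arrangement common in histone clusters. Hist1h2bq (chr13:21806612-21810197) had 7.261, 7.206 and 7.533 CPM in untreated wild type, 7.06, 7.071 and 6.989 in untreated libraries labelled Trim47-/-, 7.705, 8.602 and 9.426 in wild type after 5-FU, and 5.634, 5.432 and 7.469 in treated libraries labelled Trim47-/-. The 2 treated groups did not overlap, and the genotype difference there passed (-0.47, SE 0.118, adjusted p = 0.00533). Its other comparisons did not pass. Without replicate 3 of the treated libraries labelled Trim47-/-, the 5-FU change there was -0.35 (adjusted p = 0.0198, range over its alternatives 0.000834 to 0.514) and the difference in response -0.57 (adjusted p = 0.00376, range 0.00376 to 0.123). The latter also passed without replicate 1 of treated wild type, at -0.49 (adjusted p = 0.0318).

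Hist1h2br (chr13:21833743-21837530) fell further. It had 6.708, 6.444 and 7.533 CPM in untreated wild type, 5.54, 7.169 and 5.571 in untreated libraries labelled Trim47-/-, 7.958, 6.199 and 4.555 in wild type after 5-FU, and 2.745, 2.39 and 3.118 in treated libraries labelled Trim47-/-. The last group lay below all others, which overlapped among themselves. The gene fell after 5-FU by 1.15 in libraries labelled Trim47-/- (SE 0.203, adjusted p = 0.000462), was -1.18 between genotypes after 5-FU (SE 0.207, adjusted p = 0.000523) and -1.00 in the difference of responses (SE 0.275, adjusted p = 0.00906). The wild-type response of -0.14 did not pass (adjusted p = 0.549). Summed with Hist1h2bq, the genotype difference after 5-FU was -0.73, the 5-FU change in libraries labelled Trim47-/- -0.56 and the difference of responses -0.62, each past the threshold (adjusted p = 0.000148, 0.000834 and 0.00449). The sum changed the wild-type value to 0.06 (adjusted p = 0.678).

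**Figure D2:**
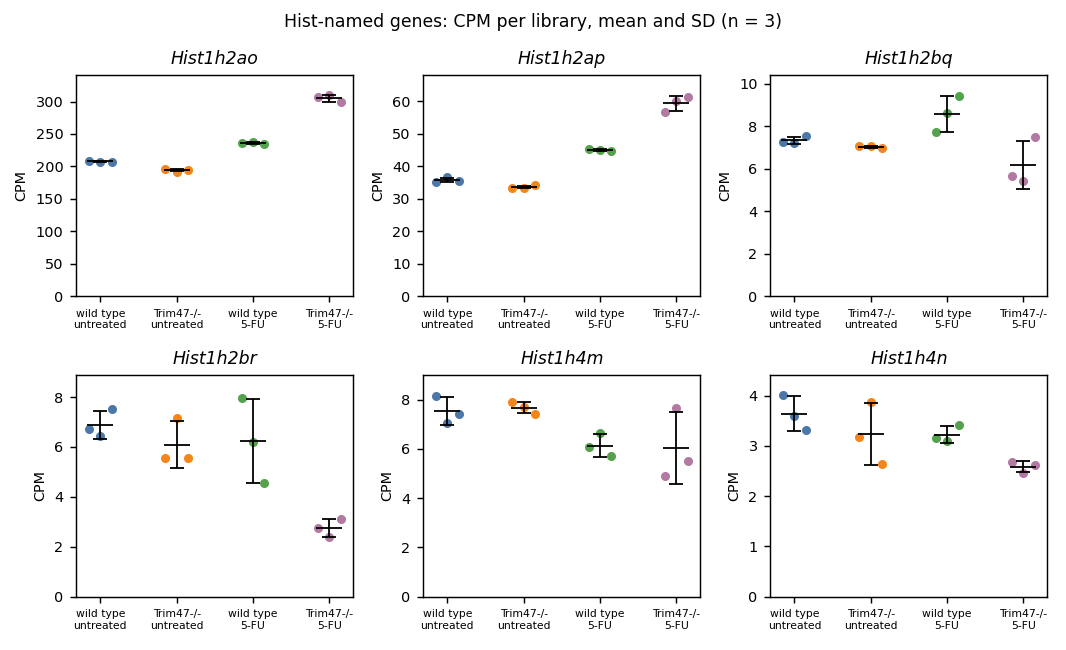
CPM of 6 Hist-named genes (vertical axes from 0) in each library by group, with mean and SD (n = 3). Hist1h2ao and Hist1h2ap are highest and Hist1h2br lowest in 5-FU libraries labelled Trim47-/-.

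The ratio of counts within each divergent pair shows the split without scaling between libraries. Hist1h2ao over Hist1h2bq was 28.4 ± 0.742, 27.6 ± 0.352 and 27.8 ± 2.85 in the first 3 groups and 50.5 ± 9.11 in treated libraries labelled Trim47-/- (mean ± SD, n = 3 each). Hist1h2ap over Hist1h2br was 5.21 ± 0.482, 5.596 ± 0.815, 7.59 ± 2.09 and 21.8 ± 2.97. In both pairs all 3 treated libraries labelled Trim47-/- lay above the other 9. The third pair, Hist1h2an over Hist1h2bp, did not follow: its ratio was 3.48 ± 1.44, 2.55 ± 0.436, 1.64 ± 0.561 and 1.88 ± 0.113. These ratios compare counts of models of unequal length, so only their change between groups can be read.

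**Figure D3:**
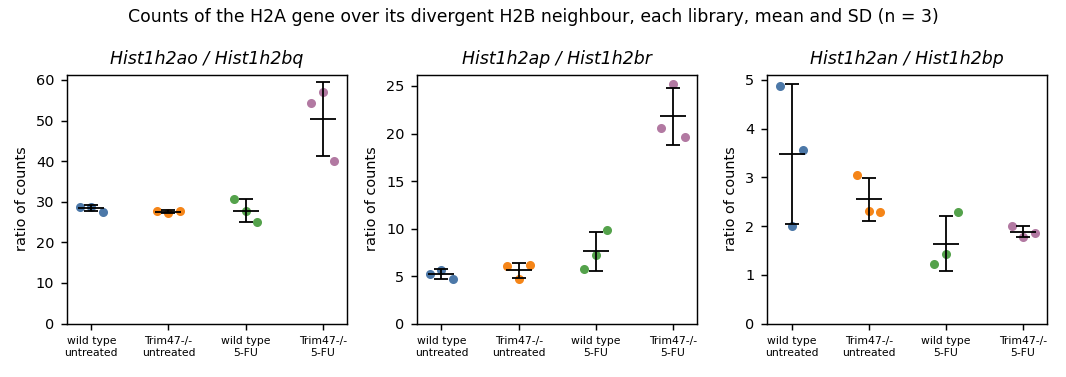
Ratio of H2A to H2B counts (vertical axes from 0) for 3 divergent gene pairs in each library by group, with mean and SD (n = 3). The first 2 pairs reach means of 50.5 and 21.8 in 5-FU libraries labelled Trim47-/-, and the third does not.

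Hist1h2bp and the H4 genes were low, and their calls were weak. Hist1h2bp had 0.5533, 1.109 and 0.622 CPM in untreated wild type and 1.453, 1.328 and 1.139 CPM after 5-FU, a rise of 0.77 in log2 (SE 0.247, adjusted p = 0.0233). The call was lost without replicate 1 or 3 of untreated wild type (0.59 and 0.65, adjusted p = 0.134 and 0.0997), without replicate 1 or 2 of treated wild type (0.69 and 0.77, adjusted p = 0.0796 and 0.0511), in DESeq2 (0.108) and with only these 6 libraries (0.0624), over a range of 0.00606 to 0.134. Hist1h4m, one of the identical H4 genes, had 7.894, 7.709 and 7.428 CPM in untreated and 4.912, 7.678 and 5.511 CPM in treated libraries labelled Trim47-/-. These overlap, and the change of -0.35 passed narrowly (adjusted p = 0.049). It was lost in 10 of 12 alternatives (adjusted p 0.00107 to 0.195), among them the fits without replicate 1 or 3 of the treated libraries labelled Trim47-/- (-0.22 and -0.29, adjusted p = 0.195 and 0.153) and without replicate 1, 2 or 3 of the untreated ones (-0.33, -0.35 and -0.37, adjusted p = 0.107, 0.0919 and 0.0724). Hist1h4n lay at 2.463 to 4.011 CPM and passed no test. Without replicate 3 of untreated libraries labelled Trim47-/- its 5-FU change there was -0.45 (adjusted p = 0.0269, range over its alternatives 0.0172 to 0.448), and summed with Hist1h4m it was -0.34 (adjusted p = 0.0172).

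Among linker histones of the cluster, H1f2 was the most abundant and differed with the genotype label in both states. H1f2 (chr13:23738808-23740367; H1.2 protein) had 308.9, 300.7 and 306.8 CPM in untreated wild type and 269.3, 272.1 and 265.3 CPM in untreated libraries labelled Trim47-/-. After 5-FU it had 339.0, 346.9 and 336.4 CPM in wild type and 256.3, 257.9 and 268.4 CPM in libraries labelled Trim47-/-. Both groups labelled Trim47-/- lay below both wild-type groups. The difference was -0.18 untreated (SE 0.023, adjusted p = 0.000113) and -0.39 after 5-FU (SE 0.023, adjusted p = 1.05e-07). The gene rose after 5-FU in wild type by 0.16 (adjusted p = 0.000146), the change of -0.04 in libraries labelled Trim47-/- did not pass (adjusted p = 0.122), and the responses differed by -0.20 (SE 0.0325, adjusted p = 0.000279). Without replicate 3 of the treated libraries labelled Trim47-/-, their change was -0.06 and passed (adjusted p = 0.0348, range 0.0179 to 0.327).

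H1f1 and H1f5 are replication-dependent linker genes of the cluster and moved differently. H1f1 (chr13:23763666-23764406) had 19.29, 21.06 and 17.62 CPM in untreated wild type and 20.35, 18.95 and 20.87 CPM in untreated libraries labelled Trim47-/-. After 5-FU it had 11.94, 11.01 and 11.64 CPM in wild type and 11.48, 12.17 and 11.6 CPM in libraries labelled Trim47-/-. All 6 treated libraries lay below all 6 untreated ones, and the genotypes overlapped in both states. The gene fell by 0.75 in wild type (SE 0.0748, adjusted p = 7.69e-06) and by 0.77 in libraries labelled Trim47-/- (SE 0.0743, adjusted p = 3.58e-06). The difference between responses was -0.03 (SE 0.105, adjusted p = 0.86).

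H1f5 (chr13:21779883-21780625) had 6.777, 6.652 and 5.805 CPM in untreated wild type and 4.413, 5.5 and 5.083 CPM in untreated libraries labelled Trim47-/-. After 5-FU it had 5.558, 5.377 and 4.808 CPM in wild type and 6.717, 6.591 and 6.744 CPM in libraries labelled Trim47-/-. The order of the genotypes turned with treatment, without overlap in either state. H1f5 rose after 5-FU in libraries labelled Trim47-/- by 0.42 (SE 0.101, adjusted p = 0.00384), and the responses differed by 0.71 (SE 0.145, adjusted p = 0.00149). Both calls were kept in every alternative. The other 3 calls were less firm. The untreated genotype difference of -0.36 (adjusted p = 0.0183, range 0.015 to 0.103) was lost in DESeq2 (0.083), without replicate 1 or 2 of untreated wild type (-0.32 and -0.33, adjusted p = 0.0695 and 0.0636) and without replicate 1 of untreated libraries labelled Trim47-/- (-0.27, adjusted p = 0.103). The difference of 0.35 after 5-FU (adjusted p = 0.0139, range 0.0144 to 0.0909) was lost in DESeq2 (0.0835) and without replicate 3 of treated wild type (0.27, adjusted p = 0.0909). The wild-type change of -0.29 (adjusted p = 0.0436, range 0.026 to 0.164) was lost in 7 of 11 alternatives, 4 of which left out replicate 2 or 3 of treated wild type (-0.30 and -0.23, adjusted p = 0.0648 and 0.164) or replicate 1 or 2 of untreated wild type (-0.25 and -0.26, adjusted p = 0.141 and 0.118).

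H1f3 and H1f4 encode the other somatic cluster linker histones. H1f3 had 15.6, 13.85 and 13.41 CPM in wild type and 10.91, 12.75 and 10.59 CPM in libraries labelled Trim47-/- after 5-FU, and 12.77 to 14.71 CPM across the 6 untreated libraries. The treated groups did not overlap. Its difference after 5-FU was -0.32 (adjusted p = 0.0128, range 0.00523 to 0.055), lost without replicate 3 of the treated libraries labelled Trim47-/- (-0.27, adjusted p = 0.0538) or replicate 1 of treated wild type (-0.26, adjusted p = 0.055). The 5-FU change in libraries labelled Trim47-/- was -0.27 (adjusted p = 0.0257, range 0.00874 to 0.0987), lost without replicate 1 or 3 of the treated (-0.24 and -0.22, adjusted p = 0.0844 and 0.0987) or untreated libraries (-0.27 and -0.22, adjusted p = 0.0579 and 0.0924). H1f4, which overlaps H2bc6, lay at 12.4 to 17.18 CPM and passed no test. Without replicate 2 of treated wild type its difference in response was -0.35 (adjusted p = 0.0328, range 0.0328 to 0.427). The testis gene H1f6 was at 0 to 0.1898 CPM.

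H1f0 showed the largest called genotype difference after 5-FU among linker histone genes. H1f0 (chr15:79028450-79030504) encodes H1.0, the linker histone of non-dividing and differentiating cells. The gene overlaps a predicted gene, Gm49544, whose reads may not be told apart from its own. It had 97.58, 110.1 and 106.2 CPM in untreated wild type and 98.6, 100.9 and 99.5 CPM in untreated libraries labelled Trim47-/-. After 5-FU it had 196.0, 206.5 and 195.0 CPM in wild type and 108.1, 106.2 and 102.6 CPM in libraries labelled Trim47-/-. Treated wild type stood alone, above the other 9 libraries. H1f0 rose there 1.9-fold (log2 0.93, SE 0.0423, adjusted p = 9.79e-09). The change of 0.08 in libraries labelled Trim47-/- did not pass (SE 0.0424, adjusted p = 0.108), except with only these 6 libraries (0.09, adjusted p = 0.044, range 0.044 to 0.439). The genotypes differed by -0.92 after 5-FU (SE 0.0424, adjusted p = 1.31e-08) and the responses by -0.84 (SE 0.0598, adjusted p = 3.95e-07). The untreated difference of -0.07 did not pass (adjusted p = 0.235, range 0.0301 to 0.648), except without replicate 1 of untreated wild type (-0.12, adjusted p = 0.0301).

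H1f10, which encodes the divergent linker histone H1.10, could not be judged with all libraries. It had 35.48 and 36.38 CPM in 2 untreated wild-type libraries and 1.382 CPM in replicate 3, which is 20 counts against 513 and 525. The other groups lay close together, at 34.96, 34.52 and 34.21 CPM in untreated libraries labelled Trim47-/-, 30.63, 30.49 and 32.64 in treated wild type, and 22.32, 20.93 and 18.49 in treated libraries labelled Trim47-/-. No comparison passed with all 12 libraries, and the SE was 0.606 to 0.867. With only the libraries compared, the genotype difference after 5-FU was -0.60 (adjusted p = 0.000697, range 0.000697 to 0.596) and the 5-FU change in libraries labelled Trim47-/- was -0.75 (adjusted p = 0.000117, range 0.000117 to 0.487). Without replicate 3 of untreated wild type, the wild-type response turned from 0.36 to -0.20 (adjusted p = 0.0407, range 0.0407 to 0.796), and the difference of responses was -0.55 (adjusted p = 0.000873, range 0.000873 to 0.483). The gene overlaps 2 predicted genes, Gm47286 and Gm5577. How the reads of the low library were assigned was not tested.

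**Figure D4:**
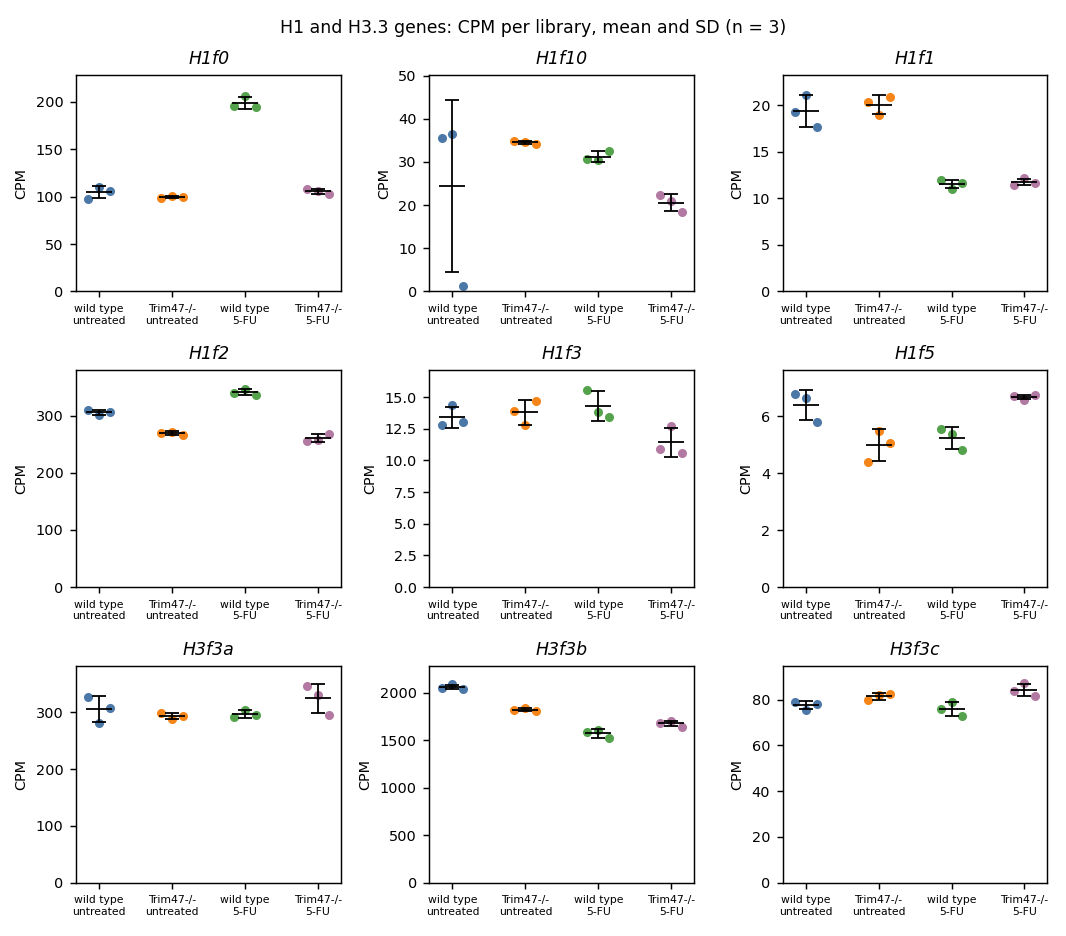
CPM of 6 linker histone and 3 H3.3 genes (vertical axes from 0) in each library by group, with mean and SD (n = 3). H1f0 is high in wild type after 5-FU only among these 4 groups, H1f1 is lower after 5-FU in both genotypes, and 1 untreated wild-type library is low for H1f10.

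The H3.3 genes, which supply H3 outside replication, moved by small amounts. H3f3b (chr11:116021912-116027962) had 2057, 2091 and 2045 CPM in untreated wild type and 1816, 1842 and 1812 CPM in untreated libraries labelled Trim47-/-. After 5-FU it had 1583, 1613 and 1526 CPM in wild type and 1682, 1706 and 1646 CPM in libraries labelled Trim47-/-. No groups overlapped. It fell after 5-FU by 0.39 in wild type (SE 0.0203, adjusted p = 2.79e-08) and by 0.12 in libraries labelled Trim47-/- (SE 0.0203, adjusted p = 0.000323), and the responses differed by 0.27 (SE 0.0287, adjusted p = 1.04e-05). The genotype difference was -0.18 untreated (adjusted p = 5.27e-05) and 0.09 after 5-FU (adjusted p = 0.00248).

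H3f3a (chr1:180800832-180813943), which encodes the same H3.3 protein, lay at 281.6 to 346.9 CPM and passed no test in edgeR with all libraries and TMM scaling. With DESeq2 size factors its 5-FU change in libraries labelled Trim47-/- was 0.15 and passed (adjusted p = 0.0459, range 0.00594 to 0.227). Replicate 3 of the treated libraries labelled Trim47-/-, at 295.8 CPM, lay below the other 2 of its group at 346.9 and 331.2 CPM. Without it the genotype difference after 5-FU was 0.19 (adjusted p = 0.0111, range 0.0111 to 0.328), the 5-FU change 0.21 (adjusted p = 0.00594, range 0.00594 to 0.227) and the difference of responses 0.25 (adjusted p = 0.0123, range 0.0123 to 0.278). The last also passed without replicate 2 of untreated wild type, at 0.25 (adjusted p = 0.0201). H3f3c, the processed copy of H3f3a, had 75.85, 78.88 and 72.82 CPM in treated wild type and 83.78, 87.21 and 81.8 CPM in treated libraries labelled Trim47-/-. These did not overlap (0.15, SE 0.0378, adjusted p = 0.00522). With the counts of H3f3a and H3f3c summed, the difference was 0.13 (adjusted p = 0.0448).

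H3f3aos, an RNA antisense to H3f3a, was low. It had 2.147, 1.075 and 1.771 CPM in treated wild type and 0.2889, 1.159 and 0.5076 CPM in treated libraries labelled Trim47-/-, which overlap. The difference passed (-1.34, SE 0.39, adjusted p = 0.0124, range 0.00146 to 0.0512) but not without replicate 1 of treated wild type (-1.12, adjusted p = 0.0512). Its change after 5-FU in libraries labelled Trim47-/- (-0.98) did not pass, but did without replicate 2 of the treated (-1.68, adjusted p = 0.00445, range 0.00445 to 0.187) or replicate 1 of the untreated libraries (-1.12, adjusted p = 0.0453). The kit marked strand per the labels' protocols. Whether the counting used strand is unknown, and reads of H3f3a and H3f3aos may be mixed. H3f4, an unprocessed pseudogene by annotation that overlaps Trim17, was at 0 to 0.09821 CPM.

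Counted over the 19 tested genes, calls were no denser than among all genes in 4 of the 5 comparisons. In untreated mice, 4 of 19 were lower and none higher in libraries labelled Trim47-/- (Hist1h2ao, H1f2, H1f5 and H3f3b), or 21.1%, against 33% of all genes called in either direction, 17.6% higher and 15.4% lower. None of the 19 was higher at an unadjusted p under 0.05 in edgeR either, and none became a higher call in DESeq2 or another alternative. After 5-FU, 5 were higher and 6 lower, or 57.9% against 54.7% (27.2% higher and 27.6% lower). The 5-FU comparison called 5 higher and 3 lower in wild type (42.1% against 50.6%, of which 25.2% higher and 25.4% lower) and 3 higher and 5 lower in libraries labelled Trim47-/- (42.1% against 60.5%, of which 29.6% higher and 30.8% lower). The responses differed for 9 genes, 4 upward and 5 downward (47.4% against 54.9%, of which 26.4% higher and 28.5% lower). Groups did not overlap in CPM for 7, 12, 10 and 10 of the 19 genes in the first 4 of these comparisons, or 36.8%, 63.2%, 52.6% and 52.6%, against 47.9%, 61.3%, 58.9% and 66.6% of all genes. Median log2 changes of the 19 genes were -0.06, -0.08, 0.09, -0.12 and -0.15 in that order, against 0.03, 0.00, 0.01, -0.01 and -0.03 over all genes.

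**Figure D5:**
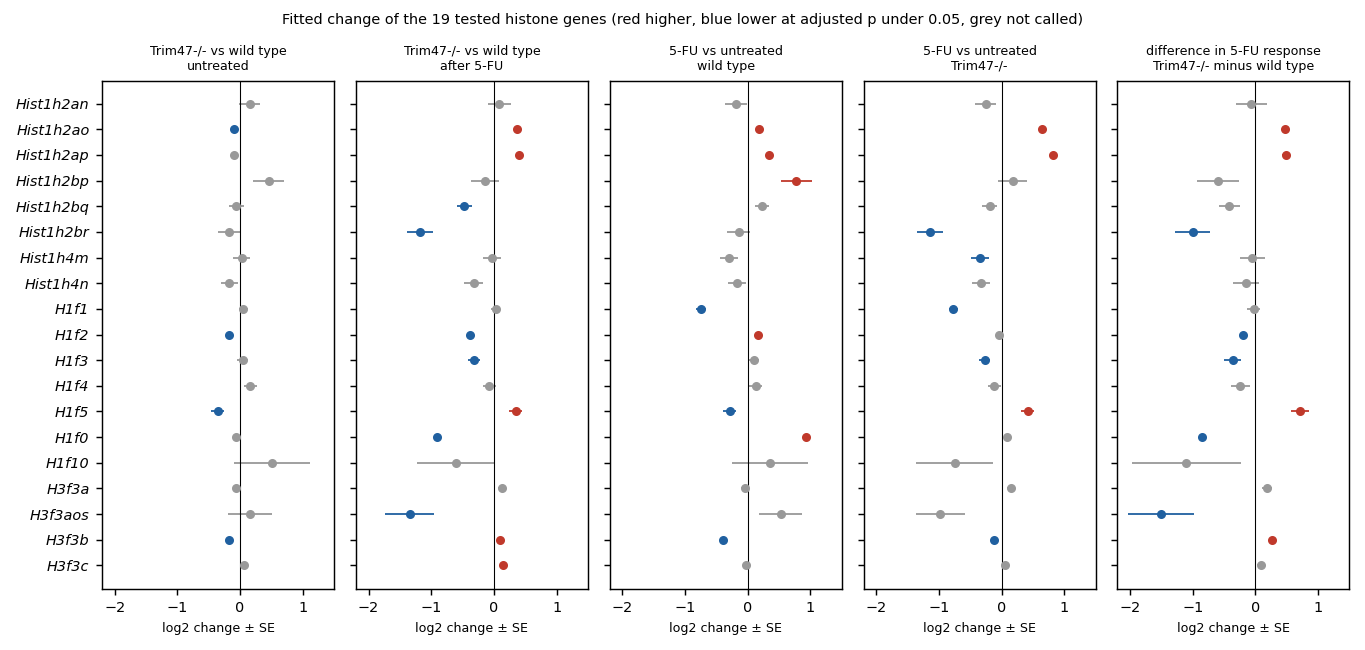
Log2 change with SE (horizontal axes) of the 19 tested histone genes in 5 comparisons, in red where called higher, blue where called lower and grey where not called. Hist1h2ao and Hist1h2ap lie to the right and Hist1h2br and H1f0 to the left in the differences after 5-FU and between responses.

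Among the 8 tested Hist-named genes the calls were 1 lower in untreated mice, 2 higher and 2 lower between genotypes after 5-FU, 3 higher after 5-FU in wild type, 2 higher and 2 lower after 5-FU in libraries labelled Trim47-/-, and 2 higher and 1 lower between responses. The higher calls other than Hist1h2bp were Hist1h2ao and Hist1h2ap each time. One lower call after 5-FU in libraries labelled Trim47-/- was Hist1h4m, described above as weak, and without replicate 1 of the treated or replicate 1 or 2 of the untreated libraries the count was 1. The count of lower calls between responses was 2 without replicate 3 of the treated libraries labelled Trim47-/- or replicate 1 of treated wild type, since Hist1h2bq then passed. Among the 11 tested H1f and H3f names, 2 were higher and 4 lower between responses, and the lower count was 2 without any of 5 libraries because H1f3 and H3f3aos did not pass. These libraries were replicates 1 and 3 of treated and 3 of untreated libraries labelled Trim47-/-, and replicate 1 of either wild-type group. In the genotype comparison after 5-FU the lower count of 4 was 2 without replicate 1 of treated wild type, and in the 5-FU comparison labelled Trim47-/- the higher count of 1 was 2 without replicate 3 of the treated libraries.

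The 60 histone genes under newer symbols were set beside these as a comparison. In untreated mice 5 of the 51 tested with an older Hist symbol were higher and 3 lower in libraries labelled Trim47-/- (15.7% against 33% of all genes). Among the higher ones were H2bu2 at 0.50 and H2bc4 at 0.18 (adjusted p = 0.00239 and 0.00318), and among the lower ones H4c9 at -0.36 and H2aw at -0.38 (adjusted p = 6.55e-05 and 0.000243). Of the 51 tested with an older Hist symbol, 3 were higher and 14 lower in libraries labelled Trim47-/- after 5-FU, 33.3% against 54.7% of all genes. In wild type 6 rose and 4 fell after 5-FU (19.6% against 50.6%), and in libraries labelled Trim47-/- 3 rose and 14 fell (33.3% against 60.5%). Between responses 2 were higher and 13 lower (29.4% against 54.9%). Summed, the 53 in the table had 440.0 ± 19.2, 453.5 ± 23.3, 503.2 ± 23.4 and 420.7 ± 21.2 CPM (mean ± SD, n = 3 each). The last group had the lowest mean here, whereas the 9 Hist-named genes summed highest in it. Its range overlapped those of both untreated groups, and the sum includes H2ac18, described below. H2bc21, an H2B gene of the Hist2 cluster, rose by 1.06 in wild type (SE 0.0782, adjusted p = 5.82e-07) and was -1.19 between genotypes after 5-FU (SE 0.0792, adjusted p = 2.52e-07). H2bc8 and H2ac6 rose in wild type by 0.36 and 0.52 (adjusted p = 2.76e-05 and 3.17e-05), and their responses differed by -0.63 and -1.15 (adjusted p = 3.94e-06 and 7.9e-07). In wild type after 5-FU these 3 genes thus rose, as H1f0 and Hist1h2ao did, while their differences of response were below 0, as for H1f0, and not above 0 as for Hist1h2ao. H4c9, 1 of the 2 higher between responses, had a difference above 0 (0.49, adjusted p = 3.22e-05) and rose after 5-FU in libraries labelled Trim47-/- by 0.35 (adjusted p = 2.72e-05). Of 6 tested genes with an older H2af symbol, 4 were higher in libraries labelled Trim47-/- after 5-FU (66.7% against 54.7% of all genes called, 27.2% higher), led by H2aj at 0.49 (adjusted p = 9.34e-08). The cluster gene H2ac18 had 376, 381 and 0 counts in untreated wild type and 0, 567 and 1079 in untreated libraries labelled Trim47-/-. After 5-FU it had 561, 534 and 1 counts in wild type and 507, 509 and 0 in libraries labelled Trim47-/-. H3c14 also went beyond counting noise in every group, with 169, 55 and 2 counts in untreated libraries labelled Trim47-/-. Counts within a group went beyond counting noise in 9 of 79 gene and group cases for the 22 genes and in 15 of 231 for the 60.

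Genes that make and end histone mRNAs were read from a list of 22, of which 19 were tested. After 5-FU, 8 were higher and 1 lower in libraries labelled Trim47-/-, or 47.4% against 54.7% of all genes. Npat, the activator of cluster histone transcription, was higher by 0.75 (SE 0.0365, adjusted p = 1.97e-08), with -0.29 in untreated mice (adjusted p = 0.000103). Npat fell in wild type after 5-FU by 0.41 (adjusted p = 3.04e-06), rose in libraries labelled Trim47-/- by 0.64 (adjusted p = 4.01e-08), and differed between responses by 1.04 (SE 0.0515, adjusted p = 2.07e-08). Slbp, the stem-loop binding protein, fell in both, by 0.50 in wild type (SE 0.0332, adjusted p = 2.41e-07) and by 0.22 in libraries labelled Trim47-/- (adjusted p = 0.000117). Upf1, a helicase that acts in histone mRNA decay, was higher in libraries labelled Trim47-/- after 5-FU by 0.31 (adjusted p = 3.97e-07). Cpsf2, a subunit of the machinery that cuts histone and other pre-mRNAs, went the other way, with a rise of 0.53 in wild type (adjusted p = 8.36e-08) and -0.32 between genotypes after 5-FU (adjusted p = 5.42e-06).

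Of 17 cleavage and polyadenylation genes, 8 were higher and 4 lower in libraries labelled Trim47-/- after 5-FU (70.6% against 54.7%). Cpsf6, which guides the choice of poly-A site, was higher by 0.30 (adjusted p = 2.54e-05) and Cstf1, a subunit of the cleavage stimulation factor, had -0.38 (adjusted p = 9.5e-06). In wild type after 5-FU, Papola, the main nuclear poly-A polymerase, rose by 0.39 (adjusted p = 1.45e-05). Of 26 histone chaperones and importers, 15 fell and 1 rose in wild type after 5-FU (61.5% against 50.6%), and 17 were higher and 1 lower between genotypes after 5-FU (69.2% against 54.7%). Nasp, a chaperone of H3, H4 and H1, fell in wild type by 0.46 (adjusted p = 3.56e-08), rose in libraries labelled Trim47-/- by 0.44 (adjusted p = 3.52e-08) and differed between responses by 0.90 (SE 0.0348, adjusted p = 2.89e-09). Hat1, which acetylates new H4, was higher after 5-FU in libraries labelled Trim47-/- by 0.44 over wild type (adjusted p = 2.51e-06).

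S-phase genes and markers of other cells moved with the same groups. Of 20 S-phase genes, 16 fell and 1 rose after 5-FU in wild type (85.0% against 50.6%), and 19 were higher and none lower in libraries labelled Trim47-/- after 5-FU (95.0% against 54.7%). Pcna, the polymerase clamp, fell in wild type by 0.45 (adjusted p = 1.82e-08), and Mcm5 of the replicative helicase, with -0.21 in wild type after 5-FU, differed between genotypes after 5-FU by 0.47 (adjusted p = 4.2e-09). In libraries labelled Trim47-/- 9 of the 20 rose and 6 fell after 5-FU (75.0% against 60.5%), with Mcm5 at 0.19 (adjusted p = 4.07e-06). H1f1 fell in both genotypes, by 0.75 and 0.77, and Hist1h2ao rose in both, by 0.19 and 0.65. In summed CPM, the 12 erythroid markers ran from 320.1 to 331.4 and 365.7 to 371.6 in the untreated groups, and from 722.5 to 730.2 and 698.2 to 710.1 in wild type and libraries labelled Trim47-/- after 5-FU. The 10 neutrophil markers ran from 2986 to 3118, 3028 to 3070, 3672 to 3764 and 5864 to 6248 CPM. The 10 monocyte and macrophage markers ran from 639.6 to 645.4, 469.3 to 497.7, 597.6 to 611.3 and 1032 to 1060 CPM, and the 10 LT-HSC markers from 897.5 to 1004, 1024 to 1130, 917.5 to 1074 and 552.1 to 634.9 CPM. Neutrophil and monocyte markers were thus highest, and LT-HSC markers lowest, in the group where Hist1h2ao was highest and Hist1h2br lowest. The 10 megakaryocyte markers ran from 119.5 to 122.5, 93.05 to 97.18, 262.0 to 267.4 and 197.5 to 202.4 CPM, and the 10 B and plasma cell markers from 664.2 to 674.3, 453.3 to 649.6, 244.4 to 292.0 and 210.1 to 246.6 CPM. No marker was at 0 in any group, and the part of these cells in the histone results was not tested.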

How the data were processed

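Poly-T beads took poly-A RNA, which was made into stranded paired-end libraries, per the labels' protocols. The table deposited by the authors gives, per the file headers, a raw count and an FPKM (fragments scaled by gene length and depth) for each gene in 12 libraries. CASAVA 1.8, GRCm38, HISAT2, edgeR and StringTie are named, with no role, in the submitters' processing notes. The sources used here give neither the counting tool nor its strand setting. Groups and replicate numbers came from the sample titles.

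Counts were fitted with edgeR 4.0.16 (R 4.3.3): TMM scaling, its default filter on low counts (16319 genes kept), all 12 libraries with 1 mean per group, the quasi-likelihood test, and Benjamini-Hochberg adjustment over all genes, called at an adjusted p under 0.05. The "difference of responses" is the interaction term, Trim47-/- minus wild type. SE is the log2 change divided by the root of F. The procedure was tested on simulated data. CPM is per TMM-scaled library size. FPKM was used only for levels between genes. Alternatives were DESeq2 size factors, DESeq2 1.42.0, no filter, the replicate number as a block, only the libraries compared, each library left out, and, added after seeing the data, counts of near-copies summed.

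Members and gene lists were chosen with earlier results of these data known. The genes picked for values per library were first the 2 with the highest level per length in each class. Up to 4 higher and 4 lower called Hist names, and 3 of each among H1f and H3f names, were added at 1 CPM or more. Of these genes, Hist1h2bp, Hist1h4m, Hist1h4n, H1f3, H3f3c and H3f3aos are given only for some groups or as a range. Genes named from a list are among its 4 of smallest p in a comparison. H1f10, H2ac18, H3c14 and the gene pairs were also chosen for what their values or sequences showed. Members had the same coordinates in GENCODE M21. Reading frames were the longest over its transcripts. Tables and plots used pandas 2.3.3, scipy 1.17.1, matplotlib 3.10.9 and numpy 2.4.6 under Python 3.11.15.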

Additional observations from a re-analysis of the deposited data

Results flagged for a closer look

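In 9 of the 19 tested histone genes the 5-FU response differed between the genotype labels by edgeR's interaction test, and for each the difference of responses (log2, Trim47-/- minus wild type) is given here. It was 0.467 for Hist1h2ao, 0.487 for Hist1h2ap, 0.707 for H1f5 and 0.271 for H3f3b. It was -1.001 for Hist1h2br, -0.202 for H1f2, -0.365 for H1f3, -0.844 for H1f0 and -1.504 for H3f3aos. H1f3 and H3f3aos passed narrowly (adjusted p = 0.0354 and 0.0298) and did not pass in 9 and 11 of 16 alternatives, with an adjusted p of 0.0126 to 0.0842 and of 0.00312 to 0.0724. For H1f3 these included leaving out replicate 1 or 3 of any group but treated wild type, where replicate 1 did so (-0.30 to -0.37 with the other alternatives). For H3f3aos they included leaving out any untreated wild-type library, replicate 1 or 3 of either treated group, or replicate 2 or 3 of untreated libraries labelled Trim47-/- (-1.15 to -1.52). Among all genes, 54.9% passed the same test.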

How the results depend on the processing

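Over 95 tests of a histone gene in 5 comparisons, 40 were called, 30 calls were kept in every alternative and 10 were lost in at least 1. Of the 55 not called, 17 passed in at least 1. The log2 change turned sign in at least 1 alternative for 15 of the 95 tests, none of them called with all libraries. For 1 of these the turned value passed: H1f10 in wild type after 5-FU, -0.202 without replicate 3 of untreated wild type, and up to 0.762 without another library.

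Counts of calls moved by over 1.5 times as follows. Lower Hist names after 5-FU in libraries labelled Trim47-/- were 2, and 1 with DESeq2 size factors, the DESeq2 test, no filter, only the libraries compared and the replicate block, and 1 to 2 when a library was left out. Lower Hist names after 5-FU in wild type were 0, and 1 with only the libraries compared. Lower Hist names between responses were 1, and 2 with the replicate block, 1 to 2 when a library was left out. Higher H1f or H3f names after 5-FU in libraries labelled Trim47-/- were 1, and 2 with DESeq2 size factors or only the libraries compared, 1 to 2 with a library left out. Lower H1f or H3f names were 4 between genotypes after 5-FU (2 to 4 with a library left out), and 4 between responses (2 with the replicate block, 2 to 4 with a library left out). Replicate numbers did not pair the libraries: deviations of same-numbered libraries correlated at -0.11 to 0.0932, and the block changed no other count by over 1.5 times; of calls of single genes it ended those of Hist1h4m after 5-FU in libraries labelled Trim47-/- (-0.354) and of H1f3 and H3f3aos between responses (-0.367 and -1.506), and it added Hist1h2bq between responses (-0.419).

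With total counts in place of TMM scaling, the Hist names summed to 265.2, 252.5 and 323.5 CPM and the H1f and H3f names to 2859, 2622 and 2682 CPM in the first 3 groups. Without genes that overlap another, the sums were 26.18, 25.09, 25.48 and 18.73 CPM and 2487, 2213, 2022 and 2053 CPM. This leaves out all 4 Hist-named H2A genes, among them Hist1h2ao and Hist1h2ap. The Hist-named sum, then of H2B and H4 genes only, is lowest, not highest, after 5-FU in libraries labelled Trim47-/-. DESeq2 size factors moved the median change of all genes by at most 0.0165 in size. Genes near 1 CPM, and genes with near-copies, are the least certain.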
